A study of Sus scrofa with 18 samples.

Results

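Immediate early genes and heat shock genes are transcribed within minutes of a stimulus, and 8 of them, FOS, FOSB, EGR1, MYC, ARC, NAB2, HSPH1 and DNAJB1, are described here in the skeletal muscle of the pig. They were found by symbol in the authors' table of mRNAs that differed between 2 muscle groups, HC-L and HC-P, and all 8 are among its 522 genes. The animals were adults of the Hechuan black pig, labelled as castrated sows, with no treatment named, and each group had 3 mRNA libraries of skeletal muscle. The study compared an oxidative with a glycolytic muscle, but no label ties HC-L or HC-P to either kind or tells whether the libraries come from separate pigs. They give neither the time from death to sampling nor the order in which the muscles were taken, so a difference in handling and a difference between the muscles cannot be told apart. The table holds only genes that the authors called, so the contrast of HC-L with HC-P chose the genes, and their levels are given as a description with no new test. Values are the authors' normalised read counts, and the libraries are named by their column headers in that table.

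Immediate early genes need no new protein for their transcription. Signals such as contraction, stretch, calcium entry, growth factors or tissue injury act on factors already present in the cell, among them serum response factor and CREB, and the transcripts appear quickly and decay quickly. FOS and FOSB encode subunits of the AP-1 transcription factor, EGR1 a zinc finger transcription factor, NAB2 a corepressor that binds EGR proteins, MYC a transcription factor of growth and metabolism, and ARC a protein best known from neuronal synapses. Heat shock genes are switched on by heat shock factor 1 when unfolded proteins build up, as they can with heat, exercise or loss of energy supply. DNAJB1 encodes a J-domain co-chaperone that activates HSP70, and HSPH1 a large HSP70-related protein that exchanges the nucleotide of HSP70.

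In the values as deposited, all 8 genes were higher in every HC-L library than in every HC-P library. When the libraries were rescaled by the median of ratios over the table, which lowered the median difference of all table genes by its construction, this held for 4 of the 8, FOS, ARC, HSPH1 and DNAJB1, and the log2 difference of NAB2 was 0.42. Under this rescaling 55.9% of all table genes had no overlap in either direction, compared with 94.4% as deposited. By the ratio of group means the excess ran from 2.89-fold for NAB2 to 91.5-fold for ARC. Of all genes in the authors' deposited table, 356 were higher in HC-L and 166 lower. The ratio of adjusted to unadjusted p at the smallest p implies that the authors tested 14206 genes, so 2.51% of them were called higher in HC-L and 3.67% were called in all. Within the table, 62.6% of the genes had HC-L libraries that all lay above the HC-P libraries, and 91.9% of those called higher. Since the call chose the members, nothing is read from their own count. On the log2(value + 1) scale the median difference between group means was 3.00 over the 8 genes and 1.39 over all genes of the table, or 1.84 over those higher in HC-L. The spread over libraries was wide as well, but not for all 8. The median SD within a group, on the same scale and pooled over both groups, was 0.93 for the 8 genes. It was 0.51 for the table and 0.60 for the table genes higher in HC-L. The SDs of FOS, FOSB, EGR1 and ARC stood at percentiles 90.4 to 99.8 of the table, and those of the other members at 50.2 to 71.8. By kind, the median was 1.28 for the 6 immediate early genes and 0.59 for the 2 heat shock genes. Among the further genes described below it was 0.67 for immediate early and 0.40 for heat shock and chaperone genes.

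**Figure D1:**
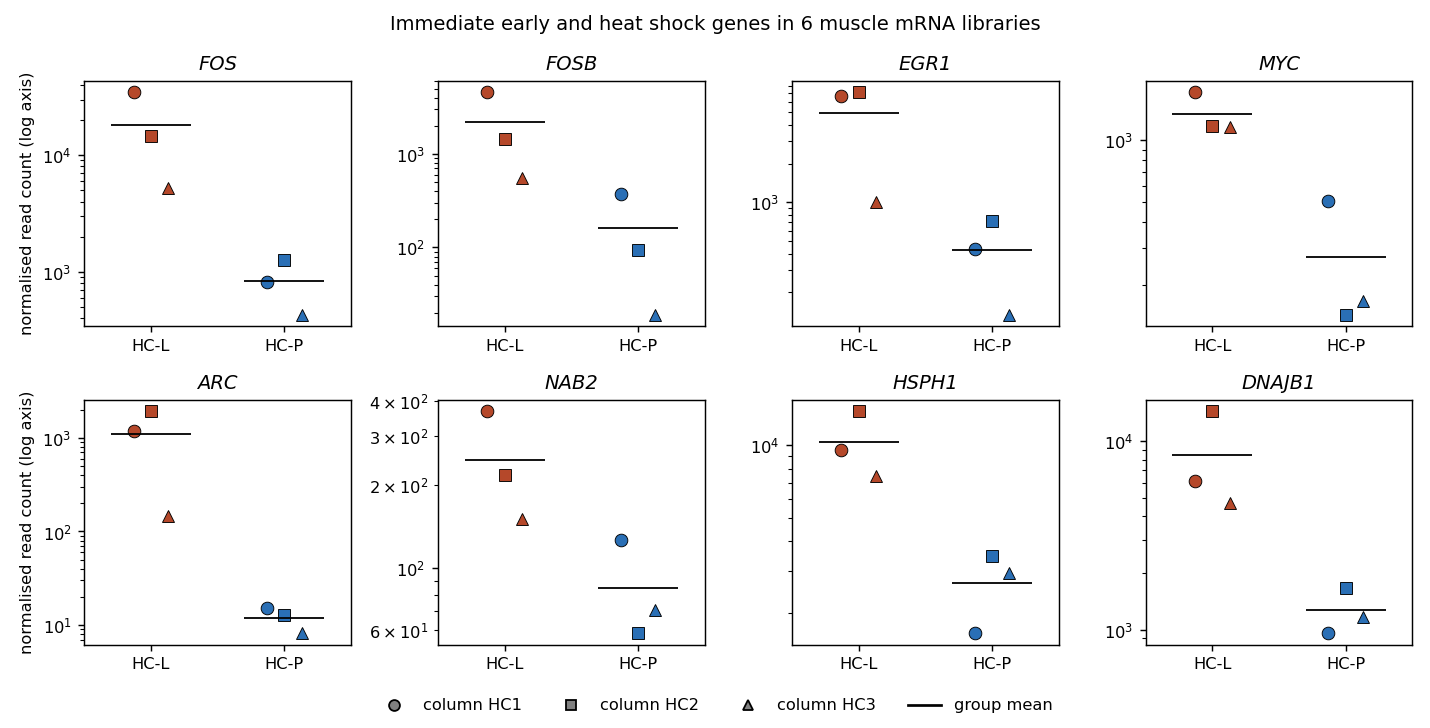
Normalised read counts of the 8 genes in the 6 muscle mRNA libraries, on log axes that differ between panels, with HC-L in red and HC-P in blue, a symbol for each column number and a line at the group mean (n = 3). Every red point lies above every blue point, and the triangle of HC3_L is the lowest red point in all 8 panels.

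FOS stood at 34679, 14489 and 5191 in HC1_L, HC2_L and HC3_L, and at 817, 1274 and 427 in HC1_P, HC2_P and HC3_P. HC1_L was the highest HC-L library and HC3_L the lowest, 6.68-fold apart, and HC3_L was 4.07-fold above the highest HC-P library. The group means were 18119 ± 15075 and 840 ± 424 (SD, n = 3 each). The authors' deposited table gives a log2 fold change of 4.43 with an adjusted p of 1.23e-11.

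FOSB, the closest relative of FOS in this set, had 4579, 1438 and 551 in the HC-L libraries and 370, 94.1 and 19 in the HC-P libraries, in column order. The highest HC-P library, HC1_P, came within 1.49-fold of the lowest HC-L library, while the HC-P libraries differed among themselves by 19.5-fold. Its SD within groups, 1.84, was larger than that of 99.8% of the genes of the table or equal to it. The authors' deposited table gives a log2 fold change of 3.77 and an adjusted p of 0.0498. FOSB has the largest unadjusted p of all 522 genes, 0.00257, so it is the last of the listed genes inside the adjusted p threshold of 0.05. The table also holds no absolute log2 fold change under 1.00, and genes outside either limit were not analysed here. FOS exceeded FOSB by 7.57-, 10.1- and 9.42-fold in the HC-L libraries and by 2.21-, 13.5- and 22.5-fold in the HC-P libraries. These ratios of normalised counts take no account of transcript length, and their comparison shows only that the pair kept a similar proportion across HC-L and not across HC-P.

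EGR1 was at 6741, 7155 and 1006 in the HC-L libraries and at 434, 713 and 134 in the HC-P libraries. HC1_L and HC2_L were nearly level, HC3_L was 7.11-fold below the highest of them, and HC3_L was only 1.41-fold above HC2_P. The authors' deposited table gives a log2 fold change of 3.54 and an adjusted p of 0.00882.

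NAB2, the EGR corepressor, whose own transcription EGR1 is known to raise in human and mouse cells, was at 370, 216 and 150 in the HC-L columns and at 126, 58.2 and 70.6 in the HC-P columns. NAB2 was counted here with the 6 immediate early genes, although a rise through EGR1 would need newly made protein. Its groups came closest of all 8 genes, with HC3_L 1.19-fold above HC1_P. The authors' deposited table gives 1.53 on the log2 scale with an adjusted p of 0.0163. EGR1 exceeded NAB2 by 18.2-, 33.1- and 6.72-fold in the HC-L libraries and by 3.44-, 12.3- and 1.90-fold in the HC-P libraries, in counts that are not scaled to length, so the pair did not keep its proportion between libraries of either muscle.

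ARC had the largest difference of the 8. It was at 1198, 1956 and 146 in the HC-L libraries and at 15.2, 12.7 and 8.15 in the HC-P libraries. HC3_L was 13.4-fold below HC2_L but still 9.60-fold above the highest HC-P library. If the smallest value of a library stands for 1 read, the HC-P values rest on 17, 12 and 9 reads, and the fold is loosely set. The authors' deposited table gives a log2 fold change of 6.52 with an adjusted p of 7.89e-09.

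MYC varied little within HC-L, at 1705, 1172 and 1157, and more within HC-P, at 506, 143 and 167, where HC1_P stood above the other libraries. The lowest HC-L library was 2.29-fold above HC1_P. The group means were 1345 ± 312 and 272 ± 203 (SD, n = 3 each), and the authors' deposited table gives 2.30 on the log2 scale with an adjusted p of 6.51e-05.

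Of the heat shock genes, DNAJB1 was at 6134, 14523 and 4706 in the HC-L columns and at 958, 1677 and 1168 in the HC-P columns, so HC2_L and HC2_P were the highest of their groups. HSPH1 was at 9521, 13926 and 7450 in the HC-L columns and at 1651, 3447 and 2932 in the HC-P columns, again with HC2_L and HC2_P highest. EGR1 and ARC had the same order of HC-L libraries, and EGR1 and FOS were also highest in HC2_P. Both heat shock genes were lowest in HC1_P among the HC-P libraries, as were 44.4% of the table genes higher in HC-L. The lowest HC-L library lay 2.81-fold above the highest HC-P library for DNAJB1 and 2.16-fold for HSPH1. The authors' deposited table gives log2 fold changes of 2.74 for DNAJB1 (adjusted p = 3.42e-08) and 1.94 for HSPH1 (adjusted p = 3.77e-06). Their SDs within groups, 0.67 and 0.51, were below those of FOS (1.12), EGR1 (1.43), ARC (1.43) and FOSB (1.84), and near those of NAB2 (0.61) and MYC (0.74).

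The distance between the groups was smaller than the range within HC-L for most of these genes. In 6 of the 8, all but MYC and HSPH1, the highest HC-L library exceeded the lowest by a larger factor than the lowest exceeded the highest HC-P library. The same held for 57.3% of the table genes higher in HC-L. With 3 libraries against 3, an exact unpaired permutation test of a single gene could not go below p = 0.10. None was run on the contrast that chose the genes.

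**Figure D2:**
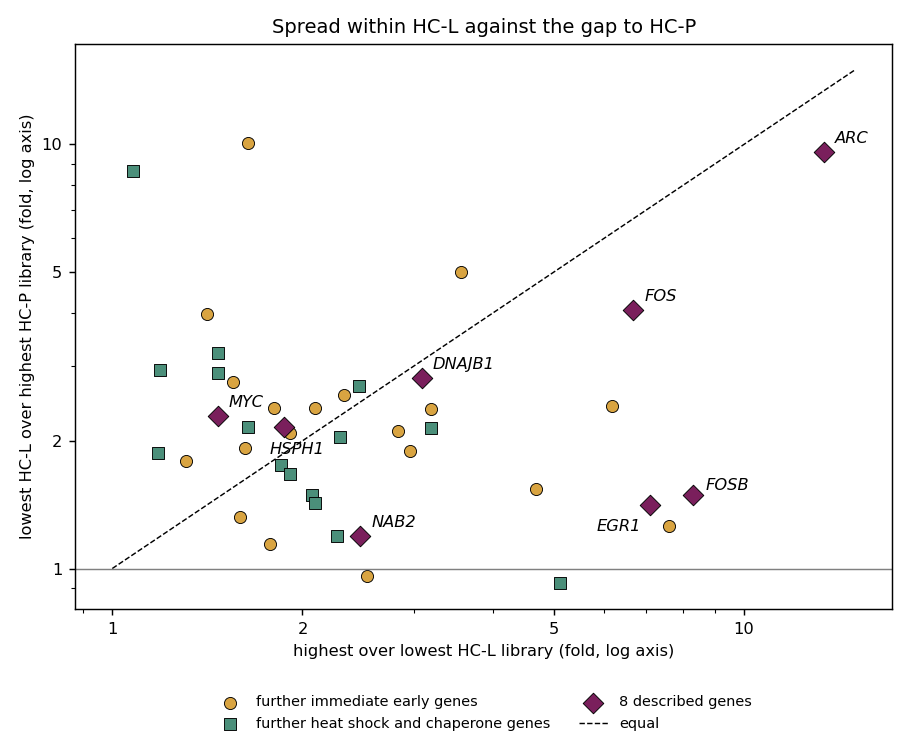
Each point is a gene, with the fold between its highest and lowest HC-L library on the x axis and the fold from its lowest HC-L to its highest HC-P library on the y axis, both log axes. Below the dashed line of equality lie 6 of the 8 described genes, with ARC at 13.4 and 9.60, and below the grey line at 1 lie genes whose groups overlapped.

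Every one of the 8 genes was lowest in HC3_L among the HC-L libraries. Of the table genes higher in HC-L, 57.6% were lowest there, and of all table genes 45.8%. The mean deviation of the 8 genes from their group mean was 0.66 in HC1_L, 0.45 in HC2_L and -1.11 in HC3_L on the log2 scale, against 0.01, 0.26 and -0.27 for all table genes higher in HC-L. For the 6 immediate early genes it was 0.94, 0.36 and -1.30, and for the 2 heat shock genes -0.18, 0.72 and -0.54. In HC-P the immediate early genes deviated by 0.77, 0.14 and -0.91 in HC1_P, HC2_P and HC3_P, and the heat shock genes by -0.50, 0.44 and 0.06. HC1_P was thus above its group mean for the immediate early genes and below it for the heat shock genes.

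Single libraries moved the size of the difference, and the direction is fixed by the choice of the genes. Without HC3_L the log2 difference went from 5.79 to 6.92 for ARC, from 3.39 to 4.32 for EGR1, from 4.11 to 4.85 for FOSB and from 4.17 to 4.87 for FOS. Without HC3_P it was 3.03 for FOSB and 2.71 for EGR1, and without HC1_P it was 5.14 for FOSB and 3.09 for MYC. Without HC1_L, FOS was at 3.50, FOSB at 3.32 and NAB2 at 1.15. Without HC2_L, ARC was at 5.05. For HSPH1 the values ran only from 1.65 without HC1_P to 2.18 without HC2_P, and for DNAJB1 from 2.12 without HC2_L to 2.93 without HC3_L.

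Further genes of the same kinds came from lists of known function, which were drawn up with earlier results of these data known. Their counts are therefore a description, and enrichment was not tested. Of 58 other immediate early and early response genes, 19 were in the table (32.8%), against 3.67% of all genes that the authors tested. All 19 were higher in HC-L and 0 lower, compared with 68.2% of the table, and 18 had no overlap between the groups, where the share among table genes higher in HC-L was 91.9%. Their median log2 difference was 2.36. List genes that are not in the table were not analysed here, so nothing is known of their levels. The largest difference on the log2(value + 1) scale was that of DUSP5, a nuclear phosphatase that inactivates ERK, at 149, 135 and 222 in HC-L libraries against 13.4, 11.6 and 10.9 in HC-P libraries. It was highest in HC3_L and differed by only 1.64-fold within HC-L, unlike FOS or EGR1. EGR3, a relative of EGR1 and the larger by the ratio of means (16.8 against 14.1), was at 60.3, 106 and 17.2 in HC-L libraries against 7.16, 1.06 and 2.72 in HC-P libraries, and shared the low value of EGR1 in HC3_L. SOCS3, a feedback inhibitor of cytokine signalling, was at 2152, 844 and 604 against 121, 71.9 and 118. PTGS2, the inducible cyclooxygenase, was at 58.2, 72.6 and 22.7 against 2.69, 9.52 and 3.62. All 4 of these genes kept their groups apart. The smallest values of HC1_P, HC2_P and HC3_P were 0.895, 1.06 and 0.905. If these stand for 1 read, the HC-P values of EGR3 and PTGS2 rest on few reads, and their folds are loosely set.

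Next in size came CSRNP1, a nuclear protein induced by AXIN1, with a log2 difference of 2.99, and RCAN1, an inhibitor of calcineurin, with 2.92. They were followed by TRIB1, a pseudokinase, with 2.56, and IER3, an early response gene linked to survival, with 2.49. NFIL3, a bZIP repressor, differed by 2.41, DUSP1, a phosphatase of p38, JNK and ERK, by 2.36, PLK2, a polo-like kinase, by 2.29, and the growth arrest genes GADD45A and GADD45B by 2.26 and 2.10. IER5, which is known to promote heat shock factor 1 activity in human cells, was at 9987, 4736 and 1313 in HC-L libraries against 1006, 768 and 1040 in HC-P libraries. Its HC-L libraries differed by 7.60-fold, a range near that of FOS, and its lowest HC-L library was 1.26-fold above its highest HC-P library.

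Of 51 other heat shock and chaperone genes, 15 were in the table (29.4%), against 3.67% of all genes that the authors tested. All 15 were higher in HC-L, as were 68.2% of the table, with a median log2 difference of 1.75. No overlap was found for 14 of them, a share near the 91.9% of the table genes higher in HC-L. DNAJA4, a J-domain co-chaperone, led with 4000, 4130 and 3832 in HC-L against 443, 315 and 405 in HC-P. Its HC-L libraries were within 1.08-fold of each other, against 1.47-fold or more for the 8 genes. HSPA1L, an HSP70 protein, was at 364, 345 and 148 against 26.9, 55.0 and 48.0, and DNAJB4, another co-chaperone, at 19743, 27189 and 18483 against 3795, 5718 and 5465. The abundant chaperones HSPA8, HSP90AA1, HSPB1, HSPB8 and CRYAB and the HSP70 partner BAG3 were named after their values were seen and had log2 differences of 1.29, 1.28, 1.35, 1.56, 1.88 and 1.80. HC2_L was the highest HC-L library for all 6, for 10 of the 15 and for 48.3% of the table genes higher in HC-L. The lowest HC-L library was HC1_L for HSPB8 and CRYAB and HC3_L for the other 4.

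**Figure D3:**
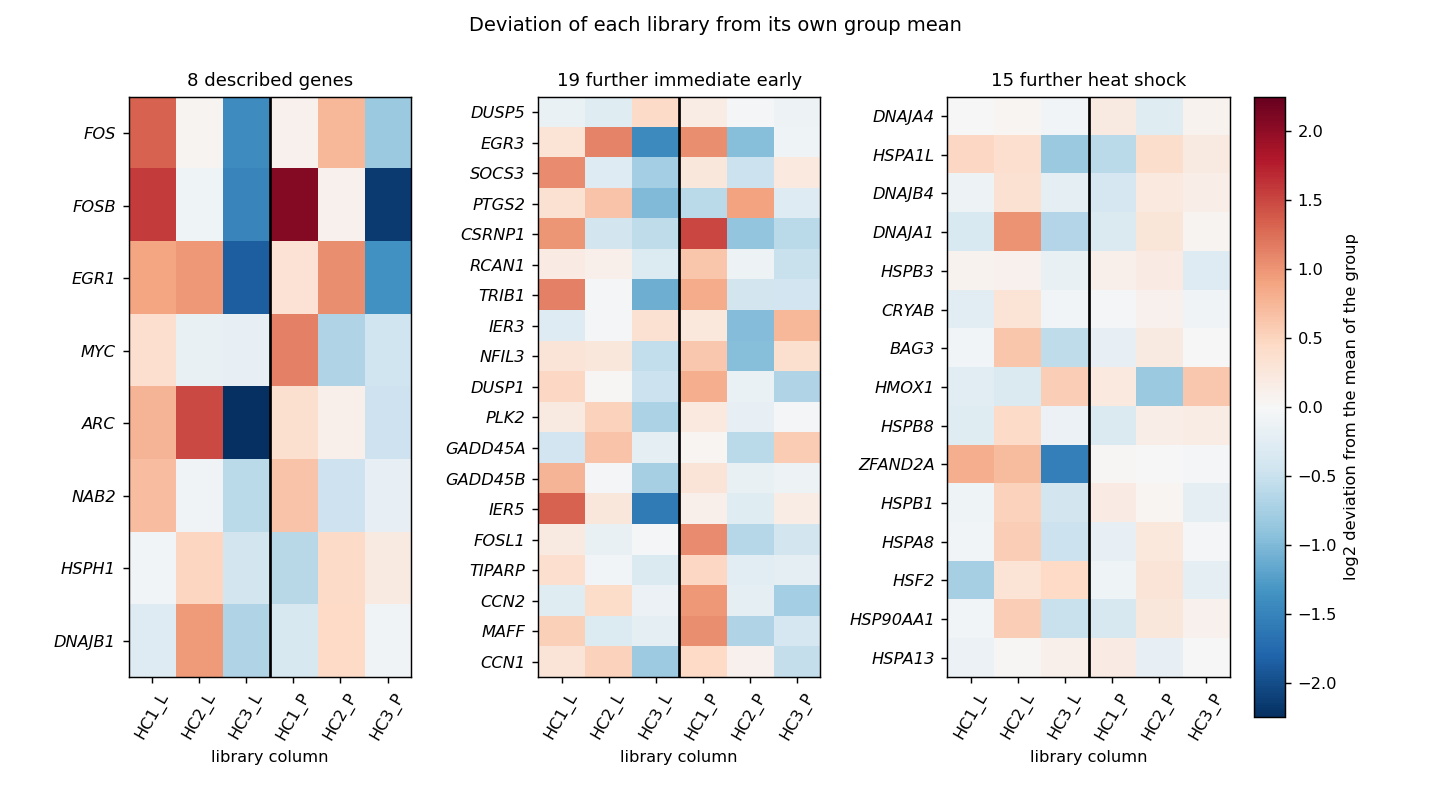
Colour gives the log2(value + 1) of a gene in a library minus the mean of that group, red above and blue below, for the 8 genes, 19 further immediate early genes and 15 further heat shock and chaperone genes, with a black line between HC-L and HC-P columns. FOS, FOSB, EGR1 and ARC are deep blue in HC3_L, from -2.25 to -1.41, while most of the further chaperones deviate less, apart from ZFAND2A at -1.54 in HC3_L.

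The order of libraries within a group parted these lists. Among the 19 further immediate early genes, 11 were highest in HC1_L (57.9%) and 15 in HC1_P (78.9%), and the 6 described here gave 4 and 4. Among the 15 further heat shock and chaperone genes, 2 were highest in HC1_L and 4 in HC1_P, whereas 10 were highest in HC2_L (66.7%) and 9 in HC2_P (60%), and both HSPH1 and DNAJB1 were highest in these columns. Of all table genes higher in HC-L, 30.9% were highest in HC1_L, 34.0% in HC1_P, 48.3% in HC2_L and 37.9% in HC2_P. Genes of a library share that library, so these counts describe 6 libraries and carry no test. HC3_L was the lowest HC-L library for 13 of the 19 and 10 of the 15, or 68.4% and 66.7%, which stands nearer to the 57.6% of the table genes higher in HC-L than does the 8 of 8 found above.

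**Figure D4:**
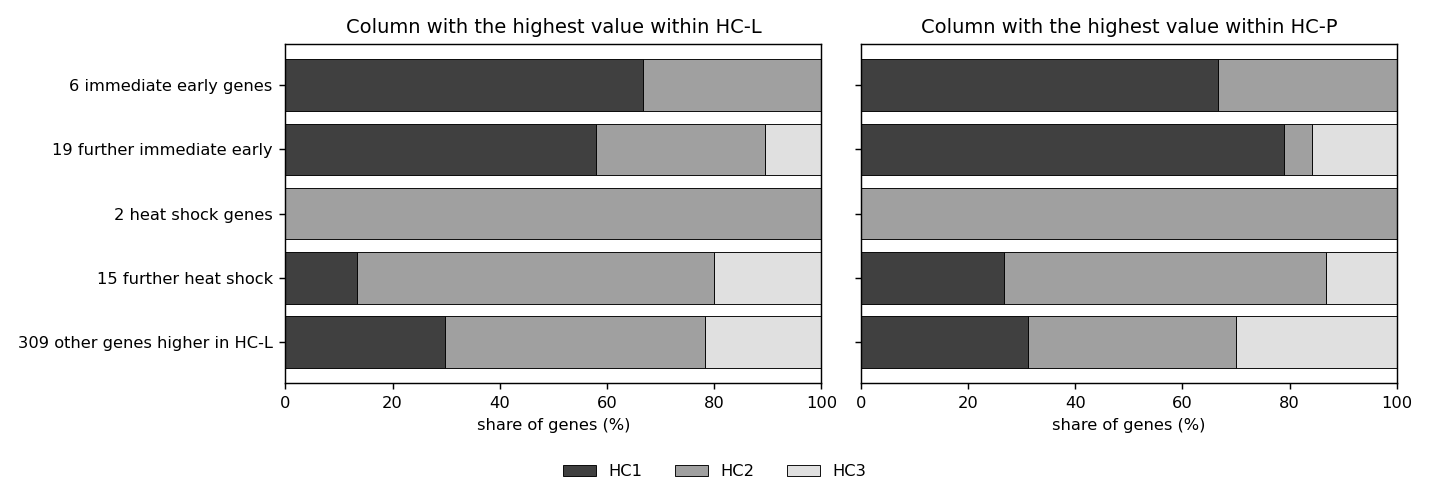
Bars give the share of genes in each set whose highest value within HC-L (left) or within HC-P (right) lay in the column HC1, HC2 or HC3, in percent. The immediate early sets are mostly dark, for HC1, and the heat shock sets mostly mid-grey, for HC2, while the 309 other genes higher in HC-L are spread over all 3 columns.

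Of 34 regulators and targets, which included SRF, the ERK kinases, MYC partners and stretch-responsive muscle genes, 5 were in the table (14.7%). The share over all genes that the authors tested was 3.67%. All 5 were higher in HC-L, as were 68.2% of the table. ANKRD1, a stretch-responsive ankyrin repeat protein of muscle, was at 43595, 76460 and 54171 against 994, 1971 and 150, with a log2 difference of 6.41. XIRP1, an actin-binding protein of repairing muscle fibres, was at 226132, 288290 and 161318 against 29861, 29026 and 18036. CSRP3, the muscle LIM protein, was at 1437, 2535 and 21935 against 57.3, 394 and 678, and was therefore highest in HC3_L, where the 8 genes were lowest. ODC1, which makes polyamines, is a known target of MYC and was named after its values were seen, had a log2 difference of 1.36. In all, 36 of the 39 list genes in the table had no overlap, again a share near the 91.9% of the table genes higher in HC-L. The exceptions, named after their values were seen, were CCN1, ZFAND2A and ANKRD2, whose lowest HC-L library was 0.959, 0.923 and 0.883 times the highest HC-P library.

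By a rule on likeness, other genes were chosen whose deviations from the group means over the 6 libraries had the highest Pearson r with the mean deviation of the 8. In the 9 reported here r ran from 0.947 to 0.997, which is high by the choice itself. The median over the 514 other genes was 0.103. The points share their libraries, and no p is given. The highest r, 0.997, was that of IL22RA1, whose low HC-P values of 3.58, 2.11 and 0 would rest on few reads. The genes were IL22RA1, a cytokine receptor subunit, AREG, a ligand of the EGF receptor, MSTN, the muscle growth inhibitor myostatin, CCN1, a matricellular protein, RAI2, FAM171A2, PPP1R3B, a glycogen-targeting subunit of protein phosphatase 1, and 2 entries with no symbol. HC3_L and HC3_P were the lowest of their groups in all 9, as the choice by likeness favours. Of the 9, 4 were higher in HC-L and 5 were lower. AREG was at 104, 93.1 and 9.98 in HC-L libraries against 7.16, 4.23 and 2.72 in HC-P libraries, MSTN at 484, 466 and 92.6 and 124, 85.7 and 66.1, and PPP1R3B at 1909, 1605 and 284 and 7938, 6749 and 4879.

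Markers of other cell types could be read only where the authors called them. Of 5 adipocyte markers 4 were in the table, against 3.67% of all genes that the authors tested. All 4 were higher in HC-L, as were 68.2% of the table. Their summed level was 407, 1818 and 806 in HC-L libraries against 115, 317 and 298 in HC-P libraries. The sum was highest in HC2_L and lowest in HC1_P, as for HSPH1 and DNAJB1. Its lowest HC-L library was HC1_L rather than HC3_L. LEP alone of the 4 was lowest in HC3_L within HC-L, at 39.2, 88.3 and 22.7. PLIN1, which coats fat droplets, was at 171, 776 and 329 against 26.9, 145 and 136. Of 8 genes listed as macrophage and neutrophil markers CXCL8 alone was in the table, at 11, 21.8 and 16.3 against 0.895, 1.06 and 0. Its values in HC1_P and HC2_P were the smallest of those libraries, and CXCL8 alone is not read as a measure of these cells. The markers of fibres, satellite cells, endothelium, lymphocytes, fibroblasts, smooth muscle, red cells and nerve were not in it, so the labelled tissue could not be checked against them. The part that these cells have in the results was not tested. In bulk muscle, fewer cells of a type and less RNA per cell cannot be told apart.

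A column of the authors' deposited table names related miRNAs for 4 of the 8 genes, and for 61.3% of all genes of the table. The sources used here do not say how the relation was made. In it EGR1 has 3 related miRNAs, DNAJB1 7, ARC 13 and NAB2 17, and FOS, FOSB, MYC and HSPH1 have 0. Small RNA libraries of the same muscle groups, 3 each with 3964875 to 9016010 miRNA reads, gave deposited TPM values for them, which are read counts scaled to the library total. The 18 related miRNAs with a miRBase name all overlapped between HC-L and HC-P in TPM. Among these 18, the first HC-P library was the highest of the 6 for 15. In it miR-328, related to ARC, NAB2 and DNAJB1, was at 847 TPM against 11.1 to 33 TPM in the other libraries. The shares of all miRNAs that overlapped or were highest in that library were not computed, so neither count is read as particular to the 18. For DNAJB1, miR-149 was at 92.2, 53.1 and 67.8 TPM in HC-L libraries against 1102, 95.7 and 69.6 TPM in HC-P libraries, and the authors' deposited table gives it an adjusted p of 0.998. For ARC, miR-34a was at 5.32, 4.99 and 4.03 TPM against 13.1, 4.30 and 1.20 TPM. For NAB2, miR-4331-3p, the miRNA in the title of the study, had 4, 3 and 3 reads against 2, 1 and 1, or 0.546, 0.333 and 0.432 TPM against 0.504, 0.154 and 0.149 TPM.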

How the data were processed

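Per the labels, skeletal muscle RNA of the HC-L and HC-P groups was sequenced by a service provider. The sources used here do not name the aligner, the build, the counting or the tests of the authors. The authors' mRNA table holds a signal per gene and library, with the log2 fold change of the authors and their p-value before and after adjustment. Each deposited signal was a whole multiple of the smallest value of its library (within 0.02 steps), as read counts would be after division by 1 factor per library, and these factors were 0.827 to 1.12 if that value is 1 read. The library totals are unknown, as only called genes are listed. The authors' small RNA table gives read counts and deposited TPM values.

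In Python 3.11.15 with pandas 2.3.3, symbols were read from the reference table of gene names or, failing that, the description, for 429 of 522 genes. Differences are between group means of log2(value + 1), with no filter on low values, and the summary was tested on simulated data. No test of the contrast was run, since it chose the genes. The rule for names took the 8 genes, the 20 list genes with the largest difference and the 10 most alike, of which 1 is not reported here. Members and lists were chosen with earlier results of these data known. If replicates are technical, SDs measure only that spread. Over the 522 genes, deviations of same-numbered columns correlated by 0.20, 0.24 and 0.15, and those of unlike-numbered columns by -0.14 to -0.05. Deviations cancel out within a group, so the signs of these values are not independent. The numbers were taken as pairs only in the block on the column number, and all other differences and SDs are unpaired. Alternatives were other pseudocounts, scaling, group summaries, a filter, a block on the column number and leaving out each library. Sequences were not used here.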

Additional observations from a re-analysis of the deposited data

How the results depend on the processing

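The median log2 difference was recomputed under 13 settings, and the counts of genes without overlap or with a shared highest library, the median SD and the difference of each of the 8 genes under 8 to 11 of them. No difference changed sign. Since the groups of the 8 genes did not overlap as deposited, only the rescaling could have changed a sign. The further lists and the likeness were not recomputed. Rescaling the libraries by the median of ratios over the table, most of whose genes were higher in HC-L, by its construction lowered the median log2 difference of all table genes from 1.39 to 0.31. Under it the median over the 8 genes was 1.91, with NAB2 at 0.42, HSPH1 at 0.88, MYC at 1.44 and DNAJB1 at 1.51. The groups of 4 of the 8 did not overlap, against 55.9% of the table in either direction, which includes genes lower in HC-L. The share among table genes higher in HC-L was not computed under this scaling, so no like share is given. Other pseudocounts, summaries and the filter gave medians of 2.97 to 3.36. With the replicate block, which took for each gene the median of the differences between same-numbered columns, the median was 3.05. The mean of those differences is the unblocked difference, so this setting changes the summary and shows no effect of blocking. With a library left out, the median ran from 2.64 to 3.63, 8 genes had no overlap each time, since removing a library cannot create one, the median SD within groups ran from 0.72 to 1.06, and the largest number of genes that share a highest library ran from 4 to 8 in HC-L and from 4 to 6 in HC-P.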
